A study of Mus musculus with 4 samples.

Results

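Polycomb repressive complex genes encode the subunits of 2 protein complexes that keep developmental genes silent. 10 of them were taken by function, as core and accessory subunits: Ezh1, Ezh2, Eed, Suz12 and Jarid2 of Polycomb repressive complex 2 (PRC2), and Rnf2, Bmi1, Cbx2, Cbx7 and Cbx8 of Polycomb repressive complex 1 (PRC1). They were found by symbol among the 28250 genes listed for each library, and 9 of the 10 had a value. Suz12 has no value in the lists used here, so it was described from the alignments alone. All 9 passed the filter on low values, with a value of at least 0.001 in each of the 4 libraries.

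The cells were TBV2, a feeder-dependent line of mouse embryonic stem cells (ESCs), kept with LIF, a cytokine that keeps ESCs undifferentiated. Whether the cultures taken for RNA held feeder cells is not stated. Both groups were of this line. The control group was kept for 24 h with solvent, and the treated group for 24 h with 5 µM MS-275, an inhibitor specific for class I histone deacetylases. Each group had 2 libraries, called replicate 1 and replicate 2, of poly(A)-selected RNA. No source says that the replicates were separate cultures, so the spread between these libraries, on which the p-values rest in part, may be technical. TBV2 being a single line, the values describe it alone.

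PRC2 places methyl groups on lysine 27 of histone H3 through its catalytic subunit, Ezh2 or Ezh1, and needs Eed and Suz12 to do so. PRC1 is built around Rnf2 (Ring1b) or Ring1, which place ubiquitin on histone H2A, together with a Pcgf protein such as Bmi1 (Pcgf4). In canonical PRC1 a Cbx protein reads the methyl mark left by PRC2. ESCs use mainly Cbx7, and Cbx2 and Cbx8 are known to take its place as the cells differentiate.

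The measured quantity is a normalized expression value per gene, which the authors made with Genomatix and for which no formula is given. It is not a read count. The values of a library summed to between 2490 and 4359, and the deposited alignments numbered between 9785619 and 23467935 per library. The files disagreed on replicate numbers: the mitochondrial genes ND5 and ND6 had values of 1.41 to 1.63 in the replicate 1 lists and 0 in the replicate 2 lists, whereas mitochondrial alignments numbered 13431 and 13889 in the replicate 2 files and 0 in the replicate 1 files. Each value list also correlated more closely with the alignments of the other replicate number in its group. Pearson correlations per length were 0.9432 and 0.9494 for the solvent lists, against 0.9048 and 0.8888 with their own number. For the MS-275 lists they were 0.9354 and 0.9355, against 0.8711 and 0.8508. Values and alignments of one label may therefore not come from the same library. The alignment files are called here by size, larger and smaller. The larger files held 53.2% and 54.4% repeated positions and the smaller ones 0%, so alignments were counted once per position. Neither the grouping of the libraries nor their pairing depends on this numbering.

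In solvent, the level of the 10 genes covered a wide range. Levels are given as distinct alignment positions per kb of exon per 1000000 distinct positions on exons, with the larger file first, because it is not stated how the deposited values treat gene length. By this measure Rnf2 had the highest mean level, with 76.2 and 88.6. Eed had 77.0 and 72.6 and Suz12 had 76.1 and 72.0. Eed overlapped in range with both Rnf2 and Suz12, so its place among them cannot be told, and Rnf2 lay just above Suz12. Cbx7 followed with 64.1 and 55.0, then the PRC2 cofactor Jarid2 with 49.9 and 50.0 and the methyltransferase Ezh2 with 37.9 and 37.1. Its paralog Ezh1 had 18.2 and 20.0. Cbx2 had 9.49 and 9.65 and Bmi1 6.24 and 4.84. Cbx8 stood lowest, with 0.953 and 0.0831. From Suz12 downwards each gene's solvent range lay apart from that of the next. Among the chromobox genes of the list, the solvent means were thus 59.5 for Cbx7, 9.57 for Cbx2 and 0.518 for Cbx8. The order near the top depended on the measure. Counting each position once can compress the levels and changes of abundant genes. In the larger solvent file, repeats were 78.1% of the alignments of Eed, 74.9% of Suz12 and 70.1% of Rnf2, against 11.1% of Cbx8. By mean deposited value in solvent, Rnf2 had 0.680, below Eed (0.927), Jarid2 (0.856), Ezh2 (0.727) and Cbx7 (0.694).

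**Figure D1:**
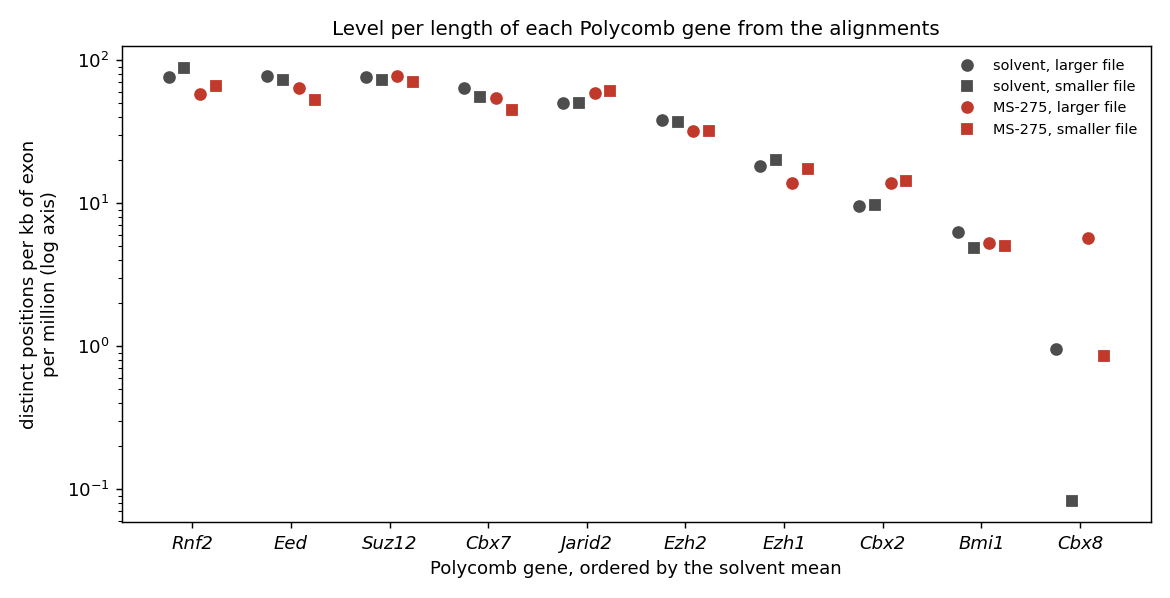
Level of each Polycomb gene in the 4 alignment files, as distinct positions per kb of exon per 1000000 on a log axis, ordered by the solvent mean (grey, solvent; red, MS-275; circles, larger files; squares, smaller files). The solvent means run from 82.4 for Rnf2 to 0.518 for Cbx8. The MS-275 points of Jarid2 and Cbx2 lie above their solvent points, while those of Ezh1, Ezh2, Eed, Rnf2 and Cbx7 lie below. The share of all genes whose points lie apart in this way was not counted. Over 15968 genes the median log2 change in levels was 0.15, so a small rise such as that of Jarid2 may be one of scale.

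The first question was which Polycomb genes changed with MS-275. With limma on log2(value + 0.005), without a term for the replicate, 0 of the 9 genes passed an adjusted p of 0.05 in either direction, and 0 had an unadjusted p under 0.05. Over all 20336 genes tested the same fit called 0.00492% higher and 0.0% lower. The libraries of one replicate number deviated together, so the fit was also made with the replicate as a block. The block takes out the difference shared by the libraries of one replicate number, and limma draws each gene's variance towards that of other genes. A small SE or p with the block therefore does not by itself mean that the 2 pairs of a gene agreed. With the block Cbx2 and Cbx8 were called higher and Eed lower, that is 2 and 1 of 9, where 21.0% of all genes were called higher and 6.46% lower. The shares called among the 9 genes were thus near those of all genes in each direction.

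Both MS-275 values lay above both solvent values for 2 of the 9 genes (Cbx2 and Cbx8) and below them for 2 (Eed and Rnf2). Over all genes tested this held for 32.3% and 12.0%. Within both replicate pairs 3 genes were higher, 5 were lower and Bmi1 was split, where 50.0% of all genes were higher in both pairs and 26.5% lower. The median log2 fold change was -0.04 over the 9 genes and 0.20 over all genes tested. The shift of all genes depended on the scaling: after median-ratio scaling their median was -0.01 and that of the Polycomb genes -0.33.

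The scale bears on which genes were called. With median-ratio scaling and the block, limma called Ezh1, Eed and Rnf2 lower and Cbx8 higher, against 13.8% lower and 16.4% higher of all genes. With quantile normalization and the block it called Eed and Rnf2 lower and Jarid2 and Cbx8 higher, against 14.6% and 14.4%. On distinct alignment positions, limma-voom without the block called Eed and Rnf2 lower, 2 of 10 against 9.16% of 15968 genes, and none higher, against 13.1%. With the block it called Ezh1, Ezh2, Eed, Rnf2 and Cbx7 lower, 5 of 10 against 22.4%, and Cbx8 higher, 1 of 10 against 24.4%. Cbx8 was called in 7 of 7 fits with the block and in no fit without it.

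**Figure D2:**
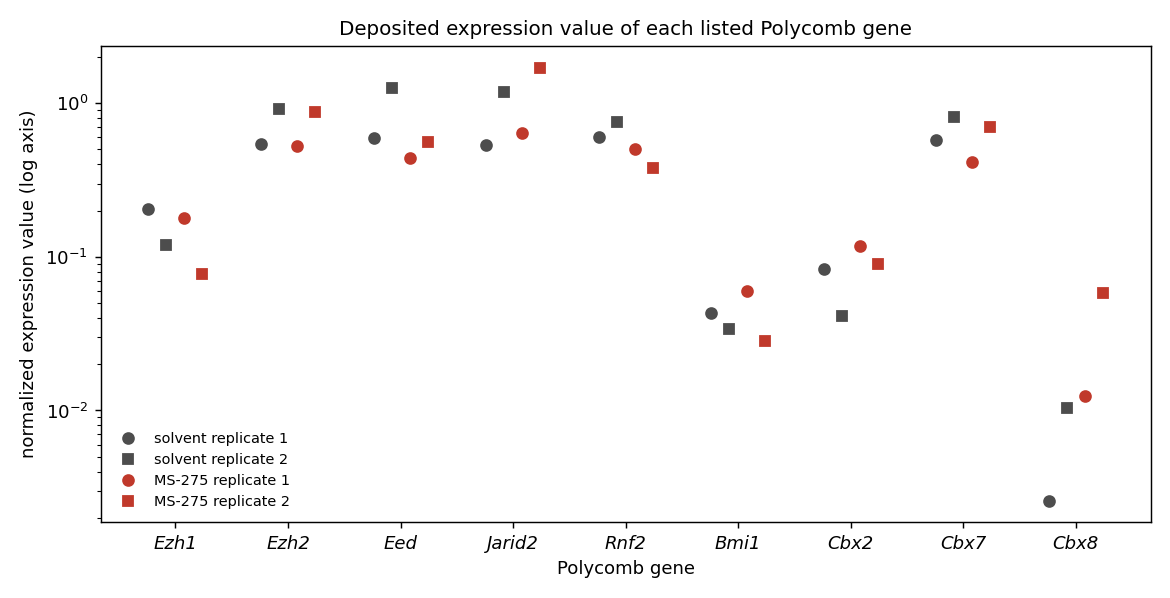
Deposited normalized expression value of the 9 listed Polycomb genes in each library, on a log axis (grey, solvent; red, MS-275; circles, replicate 1; squares, replicate 2). The 2 solvent and 2 MS-275 points overlap for 5 genes, lie apart with MS-275 lower for Eed and Rnf2, and apart with MS-275 higher for Cbx2 and Cbx8.

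Of the PRC2 core, Eed fell in the fit with the block. Eed (mm9 chr7:97103166-97129493, minus strand) binds the methylated histone tail and stimulates the enzyme. Its values were 0.597 and 1.26 with solvent and 0.441 and 0.556 with MS-275, so both MS-275 libraries lay below both solvent libraries. The means were 0.927 ± 0.466 and 0.498 ± 0.0811 (SD, n = 2). This is a log2 fold change of -0.80 ± 0.28 (SE), for which limma gave an adjusted p of 0.0455 with the block and 0.606 without it. With the block the call was lost at pseudocounts of 0.001 and 0.02, where limma gave adjusted p of 0.0523 and 0.0573. By pair the log2 fold change of Eed was -0.43 and -1.17. Without solvent replicate 1 or 2 it was -1.33 or -0.27, but leaving out 1 library also unbalances the replicates. On distinct positions, which numbered 1170 and 1054 with solvent and 788 and 849 with MS-275, limma-voom gave -0.53 and an adjusted p of 0.00164 with the block.

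The catalytic subunits did not pass on the deposited values before rescaling. Ezh2 (mm9 chr6:47480273-47545340, minus strand) had values of 0.543 and 0.912 with solvent and 0.530 and 0.879 with MS-275, nearly the same in each pair. The difference was -0.04 ± 0.27 on the log2 scale (SE of the fit with the block, as below), and limma with the block gave an adjusted p of 0.929. With 1 library left out it ranged from -0.41 to 0.33. On distinct positions it was -0.40, with an adjusted p of 0.00724 in limma-voom with the block. Ezh1 (mm9 chr11:101052429-101087777, minus strand), whose complex is less active as a methyltransferase, had values of 0.204 and 0.118 with solvent and 0.180 and 0.0779 with MS-275. It was lower with MS-275 in both pairs, but the groups overlapped. Its log2 fold change of -0.38 ± 0.23 had an adjusted p of 0.233 in limma with the block, and the value was 0.00 without solvent replicate 1 and 0.20 without MS-275 replicate 2. After median-ratio scaling the log2 fold change of Ezh1 was -0.65, with an adjusted p of 0.0355 in limma with the block. After quantile normalization it was -0.44, with 0.110 in the same kind of fit. On distinct positions it was -0.46, with an adjusted p of 0.00630 in limma-voom with the block.

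Suz12 (mm9 chr11:79806608-79847625, plus strand), a scaffold of PRC2, could be measured by positions only. It had 2488 and 2246 distinct positions with solvent and 2058 and 2451 with MS-275, larger file first. As levels these were 76.1 and 72.0 against 77.7 and 70.4, which overlap. In limma-voom with the block Suz12 had a log2 fold change of -0.17 ± 0.10 and an adjusted p of 0.200. Levels and this fit differ in scale, since over the 15968 genes tested the median log2 change was 0.15 in levels and -0.01 in the fit.

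Jarid2 (mm9 chr13:44824843-45017012, plus strand), which helps to bring PRC2 to its targets in ESCs, was the PRC2 gene whose values were higher with MS-275 in both pairs. The values were 0.531 and 1.18 with solvent and 0.635 and 1.71 with MS-275. The gap between replicates was larger than that between conditions, and the groups overlapped. Its log2 fold change of 0.39 ± 0.30 had an adjusted p of 0.356 in limma with the block, and turned to -0.18 without solvent replicate 1 and to -0.32 without MS-275 replicate 2. After quantile normalization it was 0.51, with an adjusted p of 0.0441 with the block in limma. On distinct positions it was 0.09, with an adjusted p of 0.490.

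Of the PRC1 core, Rnf2 (mm9 chr1:153316536-153347953, minus strand), the main ubiquitin ligase of PRC1 in ESCs, was lower in both MS-275 libraries than in both solvent libraries. Its values were 0.605 and 0.755 with solvent and 0.506 and 0.376 with MS-275. Rnf2 had a log2 fold change of -0.63 ± 0.27, by pair -0.26 and -0.997. It did not pass on the deposited values before rescaling, with an adjusted p of 0.0973 in limma with the block and 0.644 without it. Rescaled by median ratio, the values gave -0.91 and an adjusted p of 0.0112 in limma with the block. Quantile normalization gave -0.57 and 0.0206 in the same kind of fit. Without the block neither passed, with adjusted p of 0.456 and 0.558 in limma. On distinct positions Rnf2 fell by 0.59 on the log2 scale, from 1582 and 1756 positions to 969 and 1446. For this fall limma-voom gave an adjusted p of 0.000332 with the block and 0.0378 without it.

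Bmi1 (mm9 chr2:18598645-18608256, plus strand), one of the Pcgf proteins that define the forms of PRC1, was low and split between the pairs. Its values were 0.0428 and 0.0342 with solvent and 0.0598 and 0.0284 with MS-275, higher in the first pair and lower in the second. On the log2 scale the difference was 0.10 ± 0.29, and limma with the block gave an adjusted p of 0.827. It was -0.37 without MS-275 replicate 1 and 0.58 without MS-275 replicate 2. Its sign also depended on the scale, with -0.15 after median-ratio scaling, -0.23 after quantile normalization and -0.27 on distinct positions.

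**Figure D3:**
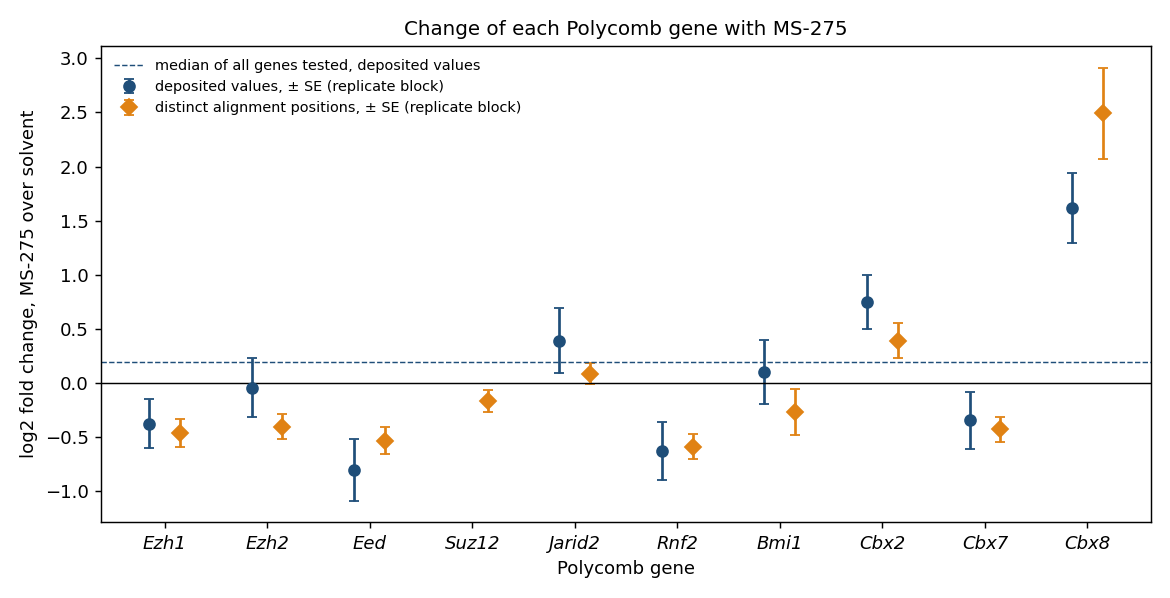
Log2 fold change of each Polycomb gene, MS-275 over solvent, from deposited values (blue circles) and from distinct alignment positions (orange diamonds), with bars of 1 SE from the fits with the replicate block. Eed and Rnf2 lie between -0.80 and -0.53 by both measures and Cbx8 at 1.62 and 2.49, while the dashed line marks the median of 0.20 over all genes tested.

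The 3 chromobox genes had changes of both signs. The promoters of Cbx8, called higher with the block, and Cbx7, the one of highest level, are shown because their values went in opposite directions in both replicate pairs. Each is RefSeq sequence of 300 bases on GRCm38.p6, most of it upstream of the gene's start, read on the gene's own minus strand, with CG dinucleotides in capitals. Cbx8 lies at chr11:119040864-119041163 and Cbx7 at chr15:79932597-79932896. These coordinates are of another build than the mm9 ones.
Cbx8: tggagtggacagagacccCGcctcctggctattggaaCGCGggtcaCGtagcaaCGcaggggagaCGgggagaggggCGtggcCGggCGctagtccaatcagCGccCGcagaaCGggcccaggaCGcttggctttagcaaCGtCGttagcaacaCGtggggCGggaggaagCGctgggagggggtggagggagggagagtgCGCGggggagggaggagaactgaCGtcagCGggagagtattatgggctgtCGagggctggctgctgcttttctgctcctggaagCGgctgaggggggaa
Cbx7: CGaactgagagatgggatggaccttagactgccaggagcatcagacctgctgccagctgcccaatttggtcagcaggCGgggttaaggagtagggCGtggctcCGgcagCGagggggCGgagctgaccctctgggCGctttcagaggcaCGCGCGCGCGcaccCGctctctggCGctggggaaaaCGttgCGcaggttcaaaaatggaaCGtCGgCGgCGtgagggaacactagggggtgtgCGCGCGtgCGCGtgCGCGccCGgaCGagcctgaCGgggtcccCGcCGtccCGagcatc
Cbx8 holds 24 CG dinucleotides and Cbx7 33, where the median of 32851 promoters was 7, and 20% and 8.56% of them hold at least as many. The table had a promoter for 9 of the 10 genes, Cbx2 being the exception, and these held 17 to 41. The letters GGGCGG, searched on both strands, occur once in each, as in 35.7% of all promoters. CCAAT, also on both strands, occurs 2 times in Cbx8 and once in Cbx7, and in 37.4% of all. TATAAA occurs in neither, and in 13.6% of all.

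Cbx8 (mm9 chr11:118897619-118902283, minus strand) rose from near the bottom of the scale. Its values were 0.00259 and 0.0104 with solvent and 0.0125 and 0.0582 with MS-275. Both MS-275 values lay above both solvent values, although 0.0125 and 0.0104 are close. MS-275 over solvent, this is a log2 fold change of 1.62 ± 0.32, by pair 1.21 and 2.04, with an adjusted p of 0.00156 in limma with the block and 0.303 without it. It was 2.55 without MS-275 replicate 1 and 0.69 without MS-275 replicate 2, and it depends on the pseudocount, with 2.14 at 0.001 and 0.94 at 0.02. Few alignments stand behind it. Distinct positions rose from 24 to 117 in the larger files, 6.01-fold relative to all positions on exons (95% exact interval 3.85 to 9.76, counting error alone), and from 2 to 23 in the smaller ones, 10.3-fold (2.55 to 90.2). The levels overlapped between groups, since the smaller MS-275 file had 0.857 and the larger solvent file 0.953. The positions lay on 4 of the gene's 5 exons in each file but that with 2 positions, where 1 exon was hit. They were not evenly spread. In the larger MS-275 file 29 of the 117 fell on exon 1, of 188 bases, and 76 on exon 5, of 3215 bases. In the smaller MS-275 file exon 1 held 1 of the 23 and exon 5 held 19.

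Cbx2 (mm9 chr11:118884276-118892584, plus strand), the neighbour of Cbx8 on chromosome 11, was also higher in both MS-275 libraries. Its values were 0.0837 and 0.0411 with solvent and 0.118 and 0.0893 with MS-275. The log2 fold change of 0.75 ± 0.25 had an adjusted p of 0.0359 in limma with the block and 0.515 without it. With the block and a pseudocount of 0.02 the call was lost, with an adjusted p of 0.0563 in limma. Leaving out solvent replicate 1 gave 1.22, and leaving out solvent replicate 2 gave 0.28. Distinct positions went from 277 to 328 in the larger files, 1.46-fold relative to all positions (95% exact interval 1.24 to 1.72), and from 269 to 444 in the smaller ones, 1.48-fold (1.27 to 1.73). With the block, limma-voom gave 0.39 on the log2 scale and an adjusted p of 0.0540.

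Cbx7 (mm9 chr15:79746237-79801549, minus strand) had lower values with MS-275 in both pairs. Its values were 0.575 and 0.813 with solvent and 0.413 and 0.700 with MS-275, with overlap between the groups. The log2 fold change of -0.34 ± 0.26 had an adjusted p of 0.356 in limma with the block. It was 0.03 without MS-275 replicate 1 and -0.10 without solvent replicate 2. On distinct positions Cbx7 fell by 0.43 on the log2 scale, with an adjusted p of 0.00487 in limma-voom with the block. With MS-275 it was still the chromobox gene of highest level among the 3, with levels of 54.4 and 45.0, against 13.9 and 14.3 for Cbx2 and 5.73 and 0.857 for Cbx8.

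Ratios between subunits that can take each other's place were compared within each library, where a constant scaling factor cancels. A scale that changes with the level of a gene does not cancel. With 2 libraries against 2, the exact two-sided permutation test cannot go below 0.333. Cbx7 over Cbx8 was 222 and 78.1 with solvent and 33.0 and 12.0 with MS-275, lower in both MS-275 libraries. Rnf2 over its paralog Ring1 was 10.5 and 18.5 with solvent and 6.25 and 5.24 with MS-275, also lower in both. Bmi1 over its paralog Pcgf2 was higher in both, with 0.162 and 0.143 against 0.344 and 0.374. These 3 ratios reached the smallest p of 0.333 in the exact permutation test, 0.556 after Benjamini-Hochberg adjustment over the 5 ratios.

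Ezh2 over Ezh1 was 2.66 and 7.70 with solvent and 2.95 and 11.3 with MS-275. On these deposited values the replicates differed more than the conditions, and the exact permutation p was 0.667. By distinct positions per kb, larger file first, Ezh2 over Ezh1 was 2.08 and 1.86 with solvent and 2.30 and 1.84 with MS-275. Cbx7 over Cbx2 was 6.87 and 19.8 against 3.51 and 7.84, which overlap, with an exact permutation p of 0.667. The log2 ratio was nonetheless lower by 0.97 and 1.34 in the 2 pairs. By distinct positions per kb, larger file first, this ratio lay apart, with 6.75 and 5.70 against 3.92 and 3.15. The position ratios were not tested. The Rnf2 to Ring1 ratio combines the lower Rnf2 with Ring1 values of 0.0577 and 0.0409 against 0.0809 and 0.0718. In Bmi1 over Pcgf2 the Bmi1 values overlapped between the groups, and those of Pcgf2 did not, with 0.264 and 0.238 with solvent and 0.174 and 0.0759 with MS-275.

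**Figure D4:**
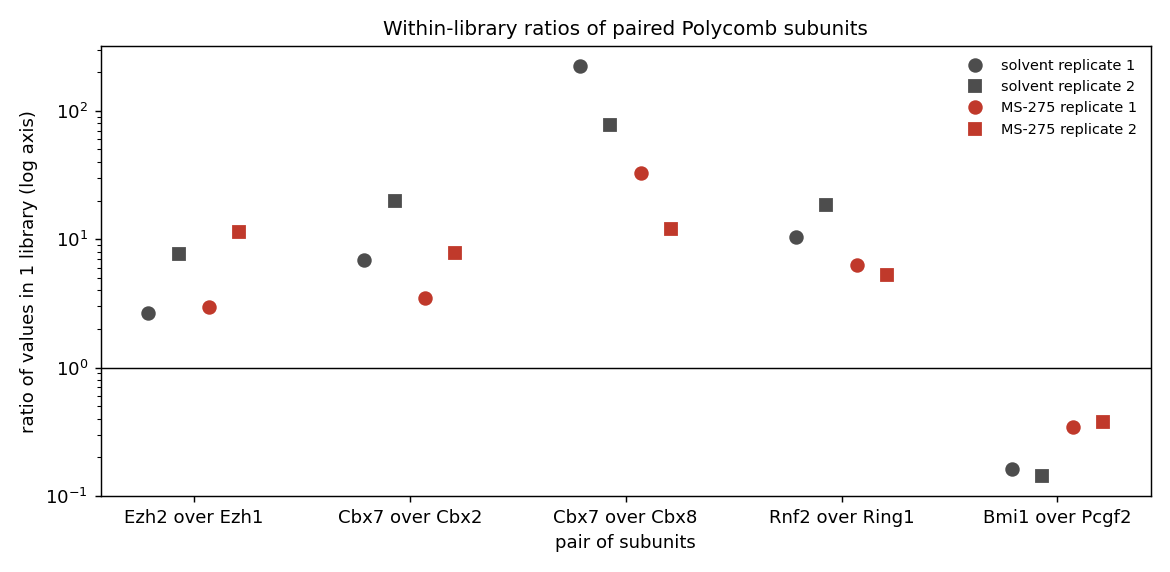
Ratio of 2 subunits' deposited values within each library, on a log axis (grey, solvent; red, MS-275; circles, replicate 1; squares, replicate 2). Cbx7 over Cbx8 and Rnf2 over Ring1 lie lower in both MS-275 libraries and Bmi1 over Pcgf2 higher, while Ezh2 over Ezh1 and Cbx7 over Cbx2 overlap between the groups.

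The other genes of the pathway were taken from 5 lists, in which 69 of 71 genes had values. In limma without the block 0 of the 69 were called and 22 had an unadjusted p under 0.05. By list, 2 of these were PRC2 partners, 4 other PRC1 subunits and 16 Polycomb targets. Of the 25 targets tested, 7 passed the filter on low values through the MS-275 libraries alone. The 22 are therefore not read against all genes, where 3538 of 20336 had such a p. The counts with the block below are to be read against the 21.0% of all genes called higher and 6.46% called lower, and those after median-ratio scaling against 16.4% and 13.8%. Of 8 further PRC2 partners 2 were called higher and 1 lower with the block, the first near the share of all genes, with a median log2 fold change of 0.06, which was -0.20 after median-ratio scaling. AU022751 (Ezhip), known as an inhibitor of PRC2, rose from 0.0234 and 0.0194 to 0.0853 and 0.0599. This log2 fold change of 1.54 had an adjusted p of 0.000849 in limma with the block. E130012A19Rik (Epop), a cofactor that binds elongin, rose by 1.12 on the log2 scale (limma with the block, adjusted p 0.00155). Aebp2, a cofactor of the Jarid2 form of PRC2, fell by 0.88 (adjusted p 0.0103 in the same limma fit). Phf19, a Polycomb-like cofactor, had -0.68 and an adjusted p of 0.111 in that fit, and -0.99 with 0.00400 on distinct positions in limma-voom with the block.

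Of 19 other PRC1 subunits 4 were called higher, close to the share of all genes, and 3 lower with the block, with a median of -0.09. After median-ratio scaling these counts were 3 and 7. The polyhomeotic paralogs, which join PRC1 complexes to each other, went in opposite directions. Phc2 rose from 0.0786 and 0.0550 to 0.230 and 0.230, a log2 fold change of 1.73 with an adjusted p of 6.3e-05 in limma with the block. Phc1 fell from 0.671 and 0.770 to 0.458 and 0.186, a log2 fold change of -1.29 with an adjusted p of 0.00546 in the same limma fit. By pair the log2 fold change of Phc1 was -0.55 and -2.02. Among the Pcgf genes, Pcgf5 rose by 1.29 on the log2 scale (limma with the block, adjusted p 0.000541) and Pcgf2 fell by 1.09 (adjusted p 0.00438). Bcor, of the variant complexes, fell by 0.66 with an adjusted p of 0.0469 in the same limma fit. AU022751, E130012A19Rik, Aebp2 and the PRC1 genes named with their adjusted p here kept their direction on distinct positions, where limma-voom with the block called each of them.

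Of 7 enzymes and cofactors that undo Polycomb marks, 1 was called higher and 2 lower with the block (21.0% and 6.46% of all genes), with a median of -0.10. The H3K27 demethylases split: Kdm6a fell by 0.81 (limma with the block, adjusted p 0.0132), and Kdm6b was called higher at 0.86 (adjusted p 0.0116) but on distinct positions gave 0.30 and an adjusted p of 0.115 in limma-voom. Asxl2, a partner of the H2A deubiquitinase Bap1, fell by 0.82 with an adjusted p of 0.0120 in limma with the block, and Asxl1 had -0.60 with 0.102. The deubiquitinases Usp16 and Mysm1 had 0.23 and 0.25, with adjusted p of 0.480 and 0.440 in limma with the block, and both turned negative after median-ratio scaling. Most of the 10 Trithorax group genes encode proteins that place, or help to place, the opposing mark on H3K4. Of the 10, 1 was called higher and 0 lower with the block, with a median of -0.30, and 0 and 4 after median-ratio scaling. The one called was Men1 at 0.80 (limma with the block, adjusted p 0.0156). Ash2l, Dpy30 and Kmt2d had -0.78, -0.49 and -0.47 and did not pass on the deposited values before rescaling. Of the 7 fits with the block, rescaled values and alignment counts included, 4, 3 and 4 called them lower. On distinct positions 8 of the 10 were called lower with the block (22.4% of all genes) and 3 without it (9.16%).

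Of 25 genes known as Polycomb targets in ESCs 14 were called higher and 1 lower with the block. With pseudocounts of 0.001 and 0.02 the number called higher was 15 and 10. They stood low: 15 of them had both solvent values below the pseudocount of 0.005, and 7 passed the filter on low values through the MS-275 libraries alone, 5 of these being among the 14. A gene that enters that way had to be higher, so the count is not read against the background. Cdkn2a, the cell cycle inhibitor locus classically held by Bmi1, rose from 0.0183 and 0.0436 to 0.168 and 0.385, a log2 fold change of 2.95 with an adjusted p of 1.35e-06 in limma with the block. Its neighbour Cdkn2b rose from 0.00667 and 0.00680 to 0.0704 and 0.0761, a log2 fold change of 2.74. Msx1, a homeobox gene, rose from 0 and 0.00195 to 0.0195 and 0.0259. Hoxb9 was the exception, with a fall from 0.0453 and 0.0405 to 0.0281 and 0.00907, a log2 fold change of -1.15 with an adjusted p of 0.0167 in limma with the block.

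**Figure D5:**
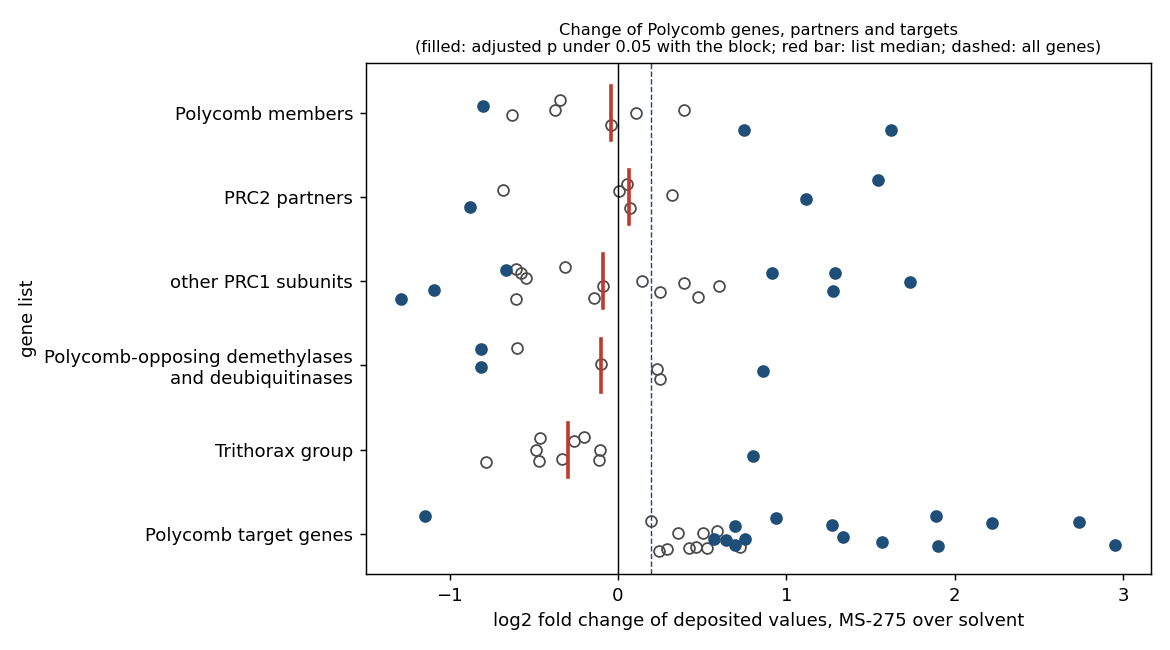
Log2 fold change of deposited values, MS-275 over solvent, for each gene of the Polycomb set and of the 5 related lists (filled circles, adjusted p under 0.05 in limma with the replicate block; open circles, others; red bars, medians of the lists whose genes all passed the filter in every library; dashed line, the median of 0.20 over all genes). The medians of the 4 lists of subunits, cofactors and opposing enzymes lie between -0.30 and 0.06.

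Markers of the cells the cultures could hold were counted in the same way. In limma without the block 0 of the 26 were called. With the block the counts stand against 21.0% of all genes called higher and 6.46% lower, and the counts by pair against 50.0% and 26.5%. All 8 ESC markers were lower with MS-275 in both pairs, with a median log2 fold change of -0.65, and 3 were called lower with the block. Their values summed to 5.32 and 22.2 with solvent and 4.23 and 13.2 with MS-275. Of 10 fibroblast markers, which feeder cells would carry, 7 were higher and 2 lower in both pairs, 5 were called higher, and the sums were 0.457 and 0.587 against 0.803 and 1.08. Of 8 primitive endoderm markers 7 were higher and 1 lower, 4 were called higher, and the sums were 0.609 and 0.421 against 0.634 and 0.321. Of these 8 genes 3 are also among the Polycomb targets. None of the 26 markers was at 0 in any library. Their part in the changes of the Polycomb genes was not tested, and in bulk RNA fewer cells of a type and less RNA per cell cannot be told apart.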

How the data were processed

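RNA-seq of TBV2 ESCs was taken from 4 libraries, grouped by their deposited titles, with the one titled a duplicate as replicate 2. Per the study's methods, reads were mapped to mm9 and the authors deposited a normalized expression signal per gene made with Genomatix. Aligner and formula are not given in the sources used here. They also deposited the alignments, each of 35 bases. Tables of genes at 0.001 or more, and the authors' own ratios, were not used.

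The fit took the 20336 genes whose signal reached 0.001 in 2 or more libraries. limma 3.58.1 in R 4.3.3 (lmFit, eBayes with a trend) was fitted to log2(value + 0.005), two-sided, with Benjamini-Hochberg adjustment over all genes and a threshold of 0.05. A fold change on this scale understates changes of low genes. The replicate block was an alternative. The pairing rests on headers of the shorter tables, where the replicate 1 columns are both marked old. It was checked: deviations from group means correlated at 0.764 over 20336 genes, and at 0.548 over 15968 genes by distinct positions.

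Alignments were counted with Python 3.11.15 by their middle base on exons of GENCODE M1 (mm9), leaving out bases shared by genes. Those with 10 or more in 2 libraries entered limma-voom on median-ratio library sizes. The libraries do not mark strand, so antisense reads cannot be told apart. Intervals were exact binomial (scipy 1.17.1) and cover counting error only. Promoters came from a RefSeq table on GRCm38.p6.

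The Polycomb genes and lists were chosen with earlier results of these data known. All 10 genes are named, and of each other list up to 3 that changed most in each direction among those that moved the same way in both pairs. Of 71 list genes, 4 were matched by Entrez identifier and 2 had no value. Ratios were compared by exact permutation. Alternatives were pseudocounts of 0.001 and 0.02, other filters, median-ratio and quantile scaling, alignment counts and each library left out. One gene that the naming rule picks is not reported here. The steps were tested on simulated data.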

Additional observations from a re-analysis of the deposited data

How the results depend on the processing

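Without the replicate block, limma called 1 gene higher in all and 0 of the Polycomb genes. Pseudocounts of 0.001 or 0.02, no filter, median-ratio scaling, quantile normalization and all alignments each called 0 genes higher, and a mean value of at least 0.01 called 466 higher and 65 lower, with 5 higher in the related lists. Distinct positions called 2095 higher and 1463 lower, with 2 Polycomb genes lower and 14 and 12 in the lists.

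With the replicate block, 4277 genes were called higher and 1314 lower, with 2 and 1 Polycomb genes and 22 and 7 in the lists. With the block and a pseudocount of 0.001 the counts were 4216 and 1220, 2 and 0, and 23 and 6. With the block and 0.02 they were 3790 and 1158, 1 and 0, and 18 and 6. With the block and median-ratio scaling they were 3344 and 2806, 1 and 3, and 19 and 17. With the block and quantile normalization they were 2936 and 2961, 2 and 2, and 15 and 15. With the block, distinct positions gave 3889 and 3570, 1 and 5, and 16 and 23, and all alignments 3266 and 3098, 1 and 5, and 15 and 21. The cause of these differences was not tested.

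Ezh2 turned to 0.011 after quantile normalization, and Bmi1 to -0.15 after median-ratio scaling, to -0.23 after quantile normalization, to -0.27 on distinct positions with or without the block, and to -0.37 on all alignments with or without it. The other 7 listed Polycomb genes kept their sign in 15 of 15 alternatives of processing over all 4 libraries. With 1 library left out, Ezh1, Ezh2, Jarid2, Bmi1 and Cbx7 changed sign, depending on the library. Eed was called at the pseudocount of 0.005 with the block, but not at 0.001 or 0.02, and Cbx2 at 0.005 and 0.001, but not at 0.02. The log2 difference in Ezh2 over Ezh1, 0.35 over all libraries, ranged from -0.62 to 1.32 with 1 library left out, and that in Bmi1 over Pcgf2, 1.24, was 0.85 by distinct positions. A fit without 1 library leaves 1 in a group and unbalances the replicates, so it was read as a value with no test. Depth limits Cbx8 most, with 2 to 117 distinct positions per file.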
